A study of Mus musculus with 4 samples.

Results

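The 10 genes described here encode the mouse NF-kB transcription factor subunits (Nfkb1, Nfkb2, Rel, Rela and Relb) and members of the IkB family that bind and regulate them (Nfkbia, Nfkbib, Nfkbie, Nfkbiz and Bcl3). They were taken by gene symbol from the 53139 loci of the authors' deposited table, and the set was chosen with earlier results of these data known. All 10 were found, each as a locus holding a single gene, and all 10 were among the 12648 loci the authors' program had tested. The samples were wild-type (WT) macrophages derived from mouse MCA fibrosarcoma tumours, labelled 9609 parent, and treated with exosomes, the small vesicles that cells release. Exosomes high in MEK1, a kinase that activates ERK, went to 2 samples (MEK1-hi), and exosomes low in MEK1, also marked GFP, went to 2 samples (MEK1-low). MEK1 content and the GFP mark thus differ together between the groups and cannot be told apart. The source of the exosomes, the dose and the time of treatment are not given in the sources used here, and no untreated macrophages were among the samples. Whether the samples within a group came from separate animals or cultures is not stated in the labels.

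NF-kB acts as dimers of these subunits, which in resting cells are held in the cytoplasm by IkB proteins. Toll-like receptors, TNF receptors and interleukin 1 receptors activate the IKK kinase, which marks the typical IkB proteins for destruction and so frees the dimers to enter the nucleus. In the non-canonical branch, the precursor made from Nfkb2 is processed to p52, the usual partner of Relb. In macrophages NF-kB drives cytokine, chemokine and survival genes, and also several genes of its own circuit.

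All 10 genes had lower values with MEK1-hi than with MEK1-low exosomes, and 6 of them fell (q under 0.05 in the authors' deposited table): Nfkb2, Relb, Nfkbia, Nfkbie, Nfkbiz and Bcl3. Among all loci tested, 1.69% were called lower and 0.751% higher at that threshold, and 49.8% had a lower value with MEK1-hi exosomes. In bulk RNA, fewer cells expressing a gene and less RNA of it per cell cannot be told apart. The summed level of the 10 genes was 418 FPKM in the MEK1-low group and 273 in the MEK1-hi group (fragments per kilobase of transcript, scaled to library size, the authors' value for a whole group). Their log2 fold changes, taken on FPKM + 1 as MEK1-hi over MEK1-low throughout, had a median of -0.65 and ran from -1.12 to -0.19. Over the 11804 loci tested that reached 1 FPKM in either group, the median was 0.00 and the SD across loci 0.32. In pairs of levels the MEK1-low value comes first. Each group has a single value, so no spread between samples can be shown and every p and q is the authors' own. The 6 genes called are among 181 loci that share the smallest p of the authors' deposited table, 5e-05 (q = 0.00349), so p does not rank them. At an unadjusted p under 0.05, the authors' deposited table had 7 of the 10 lower and 0 higher, Nfkb1 joining the 6, against 5.12% and 3.53% of all loci.

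Short stretches of promoter sequence show where letters of the NF-kB binding element stand in these genes. The kappa B consensus, the element to which NF-kB dimers bind, was searched by its usual degenerate form on both strands of RefSeq promoters (GRCm38.p6, 250 bases before to 50 after each start). The search covered 7 of the 10 genes (not Nfkb1, Relb and Nfkbiz). Of those 7, 5 (Nfkb2, Rel, Nfkbia, Nfkbie and Bcl3) had a match. The share with a match was 9.55% among 27025 genes with a promoter in the same table. Among 8230 tested loci that hold a single gene and have a promoter there, it was 12.0%. Matches are in capitals, and each stretch reads 5′ to 3′ on the strand of the gene. The stretches of Nfkbia, Nfkbie, Nfkb2 and Bcl3 are shown as those of called genes, and that of Rel, which was not called, was added after its values were seen.
Nfkbia, chr12:55492649-55492767, minus strand: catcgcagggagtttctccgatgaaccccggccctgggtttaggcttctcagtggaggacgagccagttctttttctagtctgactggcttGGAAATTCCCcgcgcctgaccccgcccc
Nfkbie, chr17:45555580-45555698, plus strand: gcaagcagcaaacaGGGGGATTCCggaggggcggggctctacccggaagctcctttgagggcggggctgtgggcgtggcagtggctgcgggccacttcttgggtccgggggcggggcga
Rel, chr11:23770971-23771089, minus strand: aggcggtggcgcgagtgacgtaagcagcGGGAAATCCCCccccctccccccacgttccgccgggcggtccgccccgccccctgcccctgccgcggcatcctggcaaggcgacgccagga
Nfkb2, first start, chr19:46304688-46304717, plus strand: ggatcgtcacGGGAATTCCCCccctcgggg
Nfkb2, further start, chr19:46305695-46305724, plus strand: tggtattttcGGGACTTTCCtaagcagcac
Bcl3, chr7:19822734-19822763, minus strand: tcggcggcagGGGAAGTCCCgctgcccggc

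Counted from the start, with the first transcribed base as 1, the Nfkbia match begins at -29 and the Nfkbie match at -106. In Rel, matches on both strands overlap in the capitals, and the first begins at -92. Nfkb2 has 3 promoter windows in the table, and the match shown at its first start, from -39, lies in an exon of a transcript that GENCODE begins farther upstream. The match shown at a further start of Nfkb2 begins at 11, inside the transcript from that start. Nfkb2 has separate matches, not shown, at -11 from the first start and at -236 from the further one. That of Bcl3 begins at 3, also inside the transcript. With only the 250 bases before the start searched, 4 of 7 genes had a match, against 8.23% of all genes and 10.3% of tested single-gene loci. Rela and Nfkbib had none in these windows. A match describes letters and does not show binding, and Rel, with a match, was not called.

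Of the 5 subunit genes, 2 fell, Relb and Nfkb2. Relb (chromosome 7, 19606217 to 19629438, mm10) encodes the subunit that pairs mainly with p52 or p50. It stood at 30.6 FPKM in the MEK1-low group and 16.2 FPKM in the MEK1-hi group, a log2 fold change of -0.87 (the authors' deposited table gave q = 0.00349). Nfkb2, which encodes the precursor p100 and its product p52, stood at 37.8 and 20.7 FPKM, a log2 fold change of -0.84 (the authors' deposited table gave q = 0.00349). The MEK1-hi values of these partners in the non-canonical branch were 53.1% and 54.6% of their MEK1-low values. The Nfkb2 gene (chromosome 19, 46304320 to 46312385) overlaps genes on the opposite strand. One of them is Psd, listed at 4.17 and 1.44 FPKM, and another is a non-coding RNA listed at 6.06 and 3.26 FPKM. Neither of these was called (the authors' deposited table gave q = 0.996 and 0.999). They share 299 and 531 exonic bases with Nfkb2. The libraries were stranded per the labels' protocols, but the strand setting of the counting was not given in the sources used here. Whether reads of the shared bases were kept apart is therefore unknown.

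Nfkb1, Rela and Rel, the subunits of the canonical branch, had lower values that did not pass the test. Nfkb1 (chromosome 3, 135584655 to 135691547) encodes the precursor p105 and its product p50. It had the highest level of the 5 subunits in both groups, 55.2 and 44.1 FPKM, a log2 fold change of -0.32 (the authors' deposited table gave p = 0.0296, q = 0.437). Rela (chromosome 19, 5637483 to 5648130) encodes p65, the main activating subunit. It stood at 36.6 and 31.4 FPKM, a log2 fold change of -0.21 (the authors' deposited table gave q = 0.970). Rel (chromosome 11, 23736847 to 23770970) encodes c-Rel, which is best known from lymphocytes. It had the lowest level of all 10 genes in both groups, 7.99 and 6.90 FPKM, a log2 fold change of -0.19 (the authors' deposited table gave q = 0.939). A q above the threshold does not show that these genes were unchanged. Whether Relb and Nfkb2 fell more than Nfkb1, Rela and Rel was not tested, since a single value per group gives no error for such a difference.

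**Figure D1:**
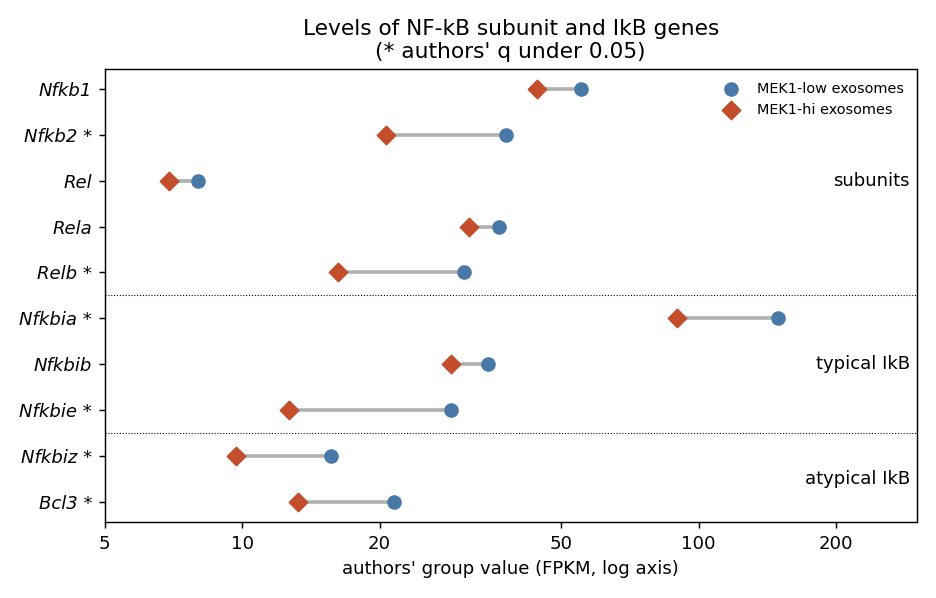
Authors' group values in FPKM on a log axis for the 10 genes, with circles for MEK1-low and diamonds for MEK1-hi exosomes and a grey bar joining the pair. Every diamond lies left of its circle, from Rel (7.99 and 6.90 FPKM) to Nfkbia (149 and 89.7 FPKM), and the 6 genes with an asterisk were called.

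Nfkbia encodes IkB alpha, the inhibitor that NF-kB itself induces and that ends a pulse of its activity. It was the most abundant of the 10 genes in both groups. Nfkbia (chromosome 12, 55489410 to 55492647) stood at 149 FPKM in the MEK1-low group and 89.7 FPKM in the MEK1-hi group, a log2 fold change of -0.73 (the authors' deposited table gave q = 0.00349). Nfkbie encodes IkB epsilon, a slower inducible inhibitor of Rela and Rel dimers. Nfkbie (chromosome 17, 45555703 to 45563169) showed the largest fall of the 10, from 28.7 to 12.7 FPKM, a log2 fold change of -1.12 (the authors' deposited table gave q = 0.00349). Of the loci tested at 1 FPKM or more, 0.644% had a log2 fold change as low as that of Nfkbie. Nfkbib (chromosome 7, 28758251 to 28767512) encodes IkB beta, the typical IkB that responds least to NF-kB. Its values were 34.6 and 28.7 FPKM, a log2 fold change of -0.26 (the authors' deposited table gave q = 0.999). On the opposite strand, Nfkbib shares 42 exonic bases with Sirt2, which stood at 59.4 and 53.0 FPKM. It also shares 314 exonic bases there with Ccer2, which was not tested and is listed at 0.0831 and 0 FPKM. Part of the Nfkbib value is thus uncertain in the same way as that of Nfkb2.

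The atypical IkB proteins act in the nucleus. Bcl3 encodes a partner of p50 and p52 homodimers. Bcl3 (chromosome 7, 19808462 to 19822770) fell from 21.5 to 13.3 FPKM, a log2 fold change of -0.66 (the authors' deposited table gave q = 0.00349). Nfkbiz encodes IkB zeta, which is itself induced by Toll-like receptors and is needed for a set of later response genes. Nfkbiz (chromosome 16, 55811375 to 55838899) fell from 15.7 to 9.70 FPKM, a log2 fold change of -0.64 (the authors' deposited table gave q = 0.00349). The MEK1-hi values of both came to a like share of their MEK1-low values, 61.5% for Bcl3 and 62.0% for Nfkbiz. Bcl3 overlaps the antisense gene Gm16175 over 161 exonic bases, and Gm16175 is listed at 0 in both groups.

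How firmly these falls are called depends on how the authors' program turned its statistic into a p-value. The test statistics of the 6 genes called in the authors' deposited table were -5.16 for Nfkbie, -4.07 for Relb, -3.87 for Nfkb2, -3.17 for Nfkbia, -2.78 for Nfkbiz and -2.76 for Bcl3. Read as normal scores and adjusted over the 12606 loci with a statistic by the Benjamini-Hochberg method, they left 3 of the 10 genes lower, namely Nfkbie, Relb and Nfkb2, against 0.579% of all loci. Over 10844 loci, the normal score of the p in the authors' deposited table was a median of 1.47 times the absolute statistic beside it, and the cause was not tested. The other thresholds, each with 6 of the 10 genes called lower, called 1.23% of all loci lower at q under 0.01 and 2.12% at q under 0.10. They called 1.68% lower with an absolute statistic of at least 2 as well, 1.47% with a change of at least 1.5-fold, and 1.86% with q recomputed over loci of at least 1 FPKM. A Bonferroni adjustment called 0 genes and 0.0% of all loci, since the smallest p is too large for it.

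**Figure D2:**
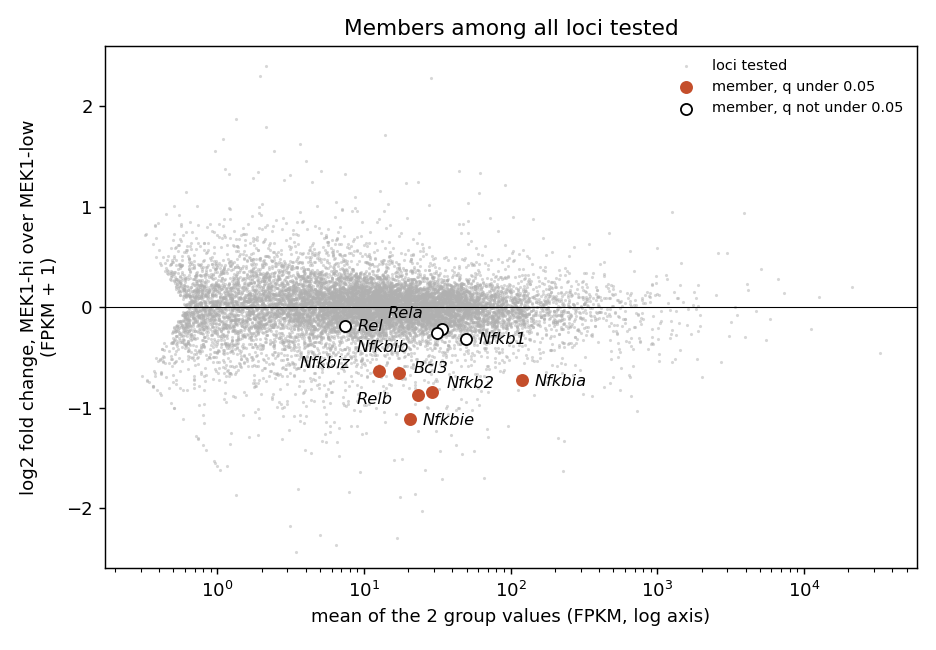
Log2 fold change (MEK1-hi over MEK1-low, on FPKM + 1) against the mean of both group values in FPKM on a log axis, with grey points for the loci tested, filled points for the 6 genes called and open points for the other 4; 14 loci lie outside the axes. All 10 genes lie below 0, from Rel at -0.19 to Nfkbie at -1.12.

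Because FPKM is scaled to gene length, the make-up of the family can be set out within each group. Of the summed FPKM of the 5 subunit genes, Nfkb1 held 32.8% in the MEK1-low group and 37.0% in the MEK1-hi group. FPKM is per gene here, and annotated transcripts, from 1 for Rel to 10 each for Nfkb1 and Relb, are not separated. The share of Rela was 21.8% and 26.3%, and that of Rel 4.75% and 5.78%. Nfkb2 held 22.5% and 17.3%, and Relb 18.2% and 13.6%. The ratio of Relb to Rela FPKM was 0.836 in the MEK1-low group and 0.517 in the MEK1-hi group, and that of Nfkb2 to Nfkb1 was 0.685 and 0.468. Within each branch the ratios were closer, at 0.809 and 0.786 for Relb to Nfkb2 and 0.218 and 0.220 for Rel to Rela. Among the typical IkB genes, Nfkbia held 70.2% and 68.4% of the summed FPKM, Nfkbib 16.3% and 21.9%, and Nfkbie 13.5% and 9.67%. The summed FPKM of the 3 typical IkB genes was 1.26 times that of the 5 subunit genes in the MEK1-low group and 1.10 times in the MEK1-hi group. These shares and ratios have no error, and none of the differences between groups was tested. They describe transcripts and not the proteins, whose amounts depend on precursor processing and on IkB degradation.

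**Figure D3:**
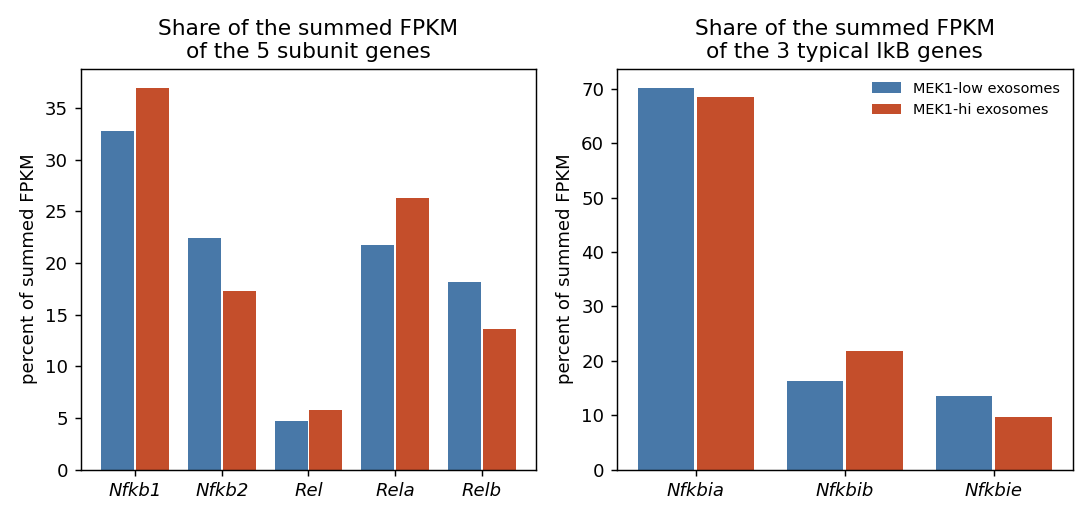
Share of the summed FPKM, in percent, taken by each of the 5 subunit genes (left) and by each of the 3 typical IkB genes (right), with 1 bar per group and no error bars because each group has a single value. The bars of Nfkb2, Relb, Nfkbia and Nfkbie are shorter with MEK1-hi exosomes, those of Nfkb1, Rela, Rel and Nfkbib are taller.

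From high to low with MEK1-low exosomes it was Nfkbia, Nfkb1, Nfkb2, Rela, Nfkbib, Relb, Nfkbie, Bcl3, Nfkbiz and Rel. With MEK1-hi exosomes it was Nfkbia, Nfkb1, Rela, Nfkbib, Nfkb2, Relb, Bcl3, Nfkbie, Nfkbiz and Rel. Nfkb2 thus stood above Rela and Nfkbib in the former and below them in the latter. Several neighbours in this order lie close together, such as Nfkb2 and Rela at 37.8 and 36.6 FPKM with MEK1-low exosomes, and whether such neighbours differ beyond the spread between samples was not tested. With MEK1-low exosomes, Nfkbia stood above 95.2% of the loci tested and Rel above 42.3%.

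The other genes of the pathway were grouped by role into 10 lists holding 129 genes. The share of all loci called lower, 1.69%, is the background for each list, and 2.44% were called in either direction. At these shares a count of 0 in lists of 6 to 16 genes is usual. It shows nothing particular to their genes. None of 16 genes of the IKK complex and its upstream kinases was called by Cuffdiff, and the authors' deposited table had 1 lower and 0 higher at an unadjusted p under 0.05. That gene was Ikbke, which encodes a kinase related to the IKK complex, at 58.8 and 42.7 FPKM (the authors' deposited table gave p = 0.0264, q = 0.408). Ikbkg, which encodes the regulatory subunit NEMO, stood at 64.1 and 57.1 FPKM. Irak1, a kinase below Toll-like receptors whose locus also holds 2 microRNA genes, stood at 57.8 and 54.4 FPKM. The median over these 16 genes was -0.07 on the log2 scale. Of 18 adaptors and ubiquitin ligases, 1 fell and 0 rose in the authors' deposited table. That gene was Traf1, an adaptor that NF-kB itself induces, which fell from 7.87 to 2.53 FPKM (the authors' deposited table gave q = 0.00349). At an unadjusted p under 0.05, 5 genes of this list were lower, namely Traf1, Traf3, Birc3, Bcl10 and Malt1. The median over these 18 genes was -0.10 on the log2 scale.

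Of 13 tested receptor genes that feed the pathway, 3 fell and 0 rose in the authors' deposited table. Tlr2, a receptor for bacterial lipopeptides, fell from 65.5 to 33.4 FPKM (the authors' deposited table gave q = 0.00349). Cd14, which hands ligands to Toll-like receptors, fell from 213 to 136 FPKM (the authors' deposited table gave q = 0.00349). Tnfrsf1b, which encodes TNF receptor 2, fell from 360 to 232 FPKM (the authors' deposited table gave q = 0.00349). Tnfrsf1a, which encodes TNF receptor 1, stood at 104 and 100.1 FPKM, and Tlr4, the lipopolysaccharide receptor, at 13.8 and 17.2 FPKM (the authors' deposited table gave q = 0.999 and 0.511). At an unadjusted p under 0.05, 3 receptor genes were lower and 3 higher, the latter being Tlr4, Tnfrsf11a (RANK) and Tnfrsf13b (TACI). Tnfrsf13b stood at 12.3 and 17.9 FPKM and narrowly missed the call (the authors' deposited table gave p = 0.00125, q = 0.0504), and it was the 1 receptor called higher at q under 0.10. With the normal p of the Cuffdiff statistic, adjusted by Benjamini-Hochberg, the calls of Cd14 and Tnfrsf1b ended, at 0.222 and 0.286. That of Tlr2 remained. Tnfrsf1a was chosen after its values were seen. On the log2 scale the receptors had a median of 0.01, and it was -0.01 over members of at least 5 FPKM.

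Of 11 genes that restrain the pathway, 2 fell. Irak3, which blocks Toll-like receptor signalling, fell from 19.5 to 10.9 FPKM (the authors' deposited table gave q = 0.0288). Tnip1, a partner of the A20 enzyme, fell from 43.1 to 28.6 FPKM (the authors' deposited table gave q = 0.0135). Neither call held with the normal p of the statistic, where the adjusted p was 0.749 for Irak3 and 0.936 for Tnip1. None of the 11 was called higher by Cuffdiff, with 0 higher at an unadjusted p under 0.05. Tnfaip3, which encodes A20, is a textbook NF-kB target like Nfkbia. It was named after its values were seen, at 51.4 and 49.4 FPKM (the authors' deposited table gave p = 0.807, q = 0.999). The median log2 fold change of these genes was -0.27. None of 6 other IkB-related regulators was called by Cuffdiff, with 0 at an unadjusted p under 0.05. The highest of these by mean level was the locus of Commd1, which promotes the removal of Rela and is joined with B3gnt2, at 151 and 146 FPKM. It was followed by Nkiras2, which binds IkB proteins, at 26.9 and 27.6 FPKM.

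Cuffdiff called 0 of 8 genes of IkB degradation and precursor processing and 0 of 13 nuclear cofactors, also with 0 at an unadjusted p under 0.05. With 2.44% of all loci called, no call is usual in lists of this size and does not show that these genes were unchanged. Ube2d3, a ubiquitin-conjugating enzyme, stood at 200.5 and 195 FPKM, and Uba1, the ubiquitin-activating enzyme, at 84.2 and 90.9 FPKM. Rps3, a ribosomal protein that also binds Rela, stood at 785 and 855 FPKM in a locus joined with a small nucleolar RNA gene. The medians of these lists were 0.04 and 0.03.

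Among genes that NF-kB is known to drive, calls were mostly lower. Of 31 tested genes of the canonical target list, 12 fell and 0 rose in the authors' deposited table. Its median log2 fold change was -0.45, and at an unadjusted p under 0.05 it had 19 lower and 1 higher, the latter Bcl2l1, which was called at q under 0.10. With the normal p of the statistic, 8 of the 12 calls remained, those of Il1b, Cxcl1, Sod2 and Traf1 among them. Il1b, which encodes interleukin 1 beta, had the largest log2 fold change of these 12, -1.42, with 6.19 and 1.69 FPKM. Cxcl1, a neutrophil-attracting chemokine, fell from 9.89 to 3.29 FPKM, and Sod2, which encodes the superoxide dismutase of mitochondria, from 333 to 132 FPKM (the authors' deposited table gave q = 0.00349 for all 3). Traf1, described above, is also on this list, as are Birc3, Tnip1, Tnfaip3, Cd40 and Zc3h12a, each of which another list holds too. The list was drawn up with results of these samples known, so its direction is not independent evidence. Ccl2, which rose, was placed on the IkB zeta-dependent list described below, and the count of 0 that rose here rests on that placement. Reads of Bcl2a1a, Bcl2a1b and Bcl2a1d, near-identical copies on the canonical list, can be split among them. Of the 5 tested genes named as targets of Relb and p52, 1 fell and 1 rose in the authors' deposited table. Cxcl13, a chemokine for B cells, fell from 11.5 to 1.41 FPKM (the authors' deposited table gave q = 0.00349). Icosl, a T cell costimulatory ligand, rose from 1.09 to 2.25 FPKM (the authors' deposited table gave q = 0.0258), a call that ended with the normal p of the statistic (adjusted p = 0.610).

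IkB zeta-dependent genes were mostly near the floor. Of 8 listed, 6 were not tested, among them Il6, Lcn2 and Csf3, and the highest untested value was 0.276 FPKM, for Edn1 with MEK1-low exosomes. Ccl2, the monocyte-attracting chemokine, rose from 9.10 to 47.9 FPKM (the authors' deposited table gave q = 0.00349) while Nfkbiz fell. Saa3, an acute-phase protein, stood at 5.74 and 0.483 FPKM (the authors' deposited table gave p = 0.0055, q = 0.147).

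**Figure D4:**
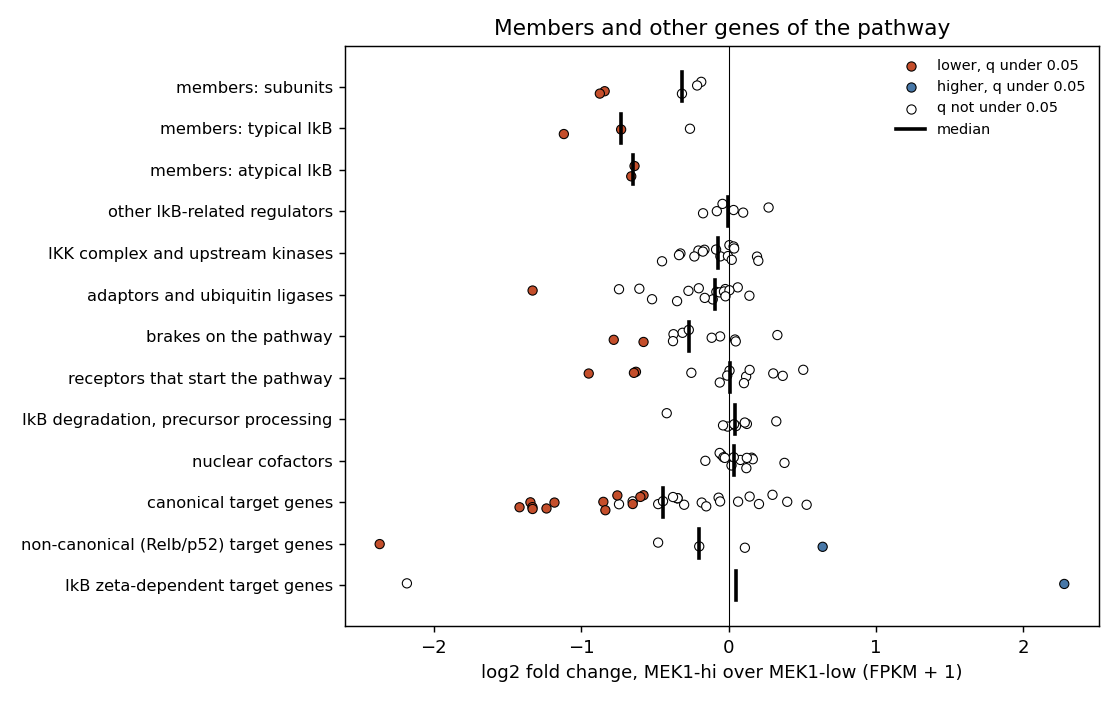
Log2 fold change (MEK1-hi over MEK1-low, on FPKM + 1) of each tested gene, in rows for the 3 classes of members and the 10 lists of other pathway genes; filled points were called, and thick bars are medians. The medians of the typical and atypical IkB genes lie at -0.73 and -0.65, and those of kinases, degradation genes and cofactors between -0.07 and 0.04.

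Values were also listed for the genes beside the members on the chromosome. For each of the 10 genes the nearest tested gene without overlap was taken on each side, a comparison added after the values were seen. None of these 20 neighbours was called by Cuffdiff, against 2.44% of all loci tested. At that share a count of 0 among 20 genes is usual, so it shows nothing particular to the neighbours. Of the 20, 10 had a lower value. Log2 fold changes of the 20 ran from -0.41 to 0.53, with a median of -0.00. Relb and Bcl3 lie on chromosome 7 with 179023 bases between them. None of the 8 genes tested in that interval was called. Clptm1 stood at 66.8 and 72.6 FPKM, and Apoe, which encodes the lipid carrier apolipoprotein E, at 19858 and 22876 FPKM (the authors' deposited table gave q = 0.999 for both). The widest log2 fold changes there were 0.76 for Apoc1, at 2.18 and 4.40 FPKM, and -0.41 for Nectin2 (the authors' deposited table gave q = 0.722 and 0.999). At unadjusted p, 2 of the 20 neighbours were under 0.05, both higher, Slc39a8 and Gm5487 (the authors' deposited table gave p = 0.0138 and 0.0042), the latter 1825290 bases from Nfkbiz.

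**Figure D5:**
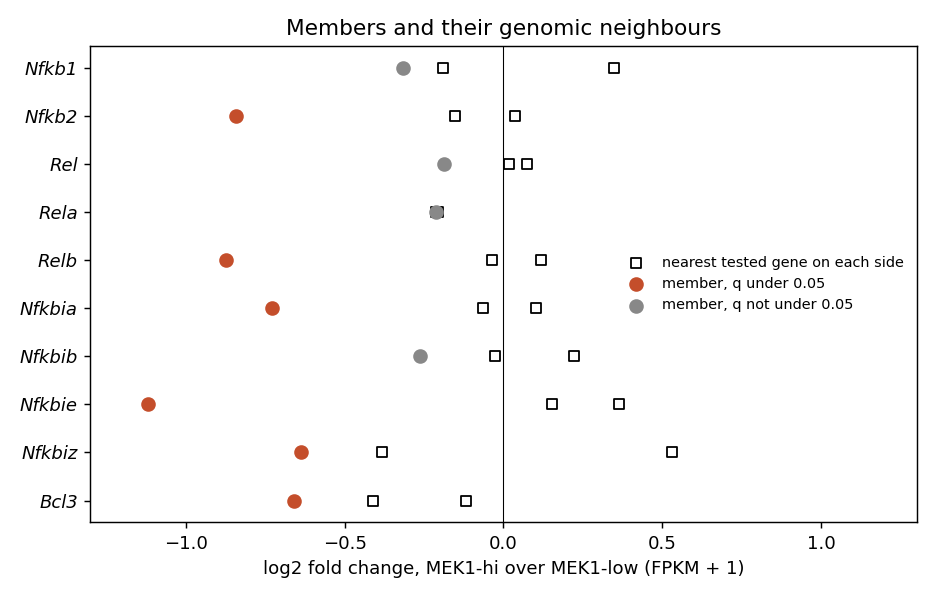
Log2 fold change (MEK1-hi over MEK1-low, on FPKM + 1) of each member (circle) and of the nearest tested gene on each side (open squares, partly hidden behind the circle for Rela). The 6 called members lie between -1.12 and -0.64, the 4 members not called between -0.32 and -0.19, and the 20 neighbours between -0.41 and 0.53. The called members were picked out by their change and the neighbours were not, so the gap between those sets is no result.

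Macrophage markers were abundant in both groups. The 10 markers summed to 18058 FPKM in the MEK1-low group and 18753 in the MEK1-hi group, of which Lyz2 (lysozyme) made up 12303 and 13148. Of the 10, Cd14 was called, as lower, and Fcgr1, an Fc receptor, had 107 and 153 FPKM, higher at an unadjusted p only (the authors' deposited table gave p = 0.011, q = 0.236). Of other cell types, the 8 neutrophil markers summed to 253 and 238 FPKM, of which Mmp8 made up 179 and 184, while S100a9, Ly6g, Mpo and Elane had 0 listed for each group. The sums were 4.77 and 4.80 FPKM over 6 dendritic cell markers, 8.75 and 6.31 over 8 T and NK cell markers, 2.25 and 2.12 over 5 B cell markers, 6.64 and 5.38 over 8 fibroblast and fibrosarcoma markers and 1.62 and 1.20 over 4 endothelial markers. Cuffdiff tested only 3 of the neutrophil, 1 of the dendritic cell, 2 of the T and NK cell and 1 of the B cell markers. It tested 5 of the fibroblast and fibrosarcoma and 2 of the endothelial markers. None of those tested was called, against 2.44% of all loci tested, a share at which no call among so few is usual. The neutrophil marker S100a8 was lower at an unadjusted p under 0.05, with 35.5 and 22.6 FPKM. The part of other cell types in the falls of the NF-kB genes was not tested.

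The promoters of all called loci were searched in the same way as those of the members. Of 157 single-gene loci called lower with a promoter in the table, 19.1% had a kappa B match, of 64 called higher 10.9%, and of 8230 tested 12.0%. These shares are a description, and the first includes Nfkb2, Nfkbia, Nfkbie and Bcl3. By list, 11 of 26 canonical targets with a promoter had a match (42.3%), and 4 of 9 genes that restrain the pathway (44.4%). The canonical list was made of genes known as NF-kB targets, and both lists hold Tnip1, Tnfaip3 and Zc3h12a. These shares are therefore not independent evidence. The other 8 lists lay between 12.5% and 25.0%, with 1 of 8 targets of Relb and p52 and 1 of 6 IkB zeta-dependent genes.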

How the data were processed

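RNA from 4 samples of tumour-derived macrophages was sequenced as stranded mRNA libraries, per the labels' protocols. FastQC 0.73, TopHat, Cufflinks and Cuffdiff, with the build mm10, are named in the submitters' processing notes, and their settings, library normalization included, were not given in the sources used here. The authors deposited 1 FPKM value per group, with a test score, p-value and q-value per locus, per the file headers. The authors' columns GFP exo and MEK1 exo were matched to the MEK1-low and MEK1-hi groups through the treatment labels. FPKM keeps no counts, so sample depth is unknown. Adjusting the authors' p-values by Benjamini-Hochberg over the 12648 loci tested gave their q-values within 5.19e-07.

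Identifiers were matched to symbols for 54824 of 55082 gene identifiers, and positions were taken from GENCODE M21. Log2 fold changes were computed on FPKM + 1, which understates the change of low genes. A locus was called at a deposited q under 0.05. The p-values measure at most the spread between these samples, which may be technical. Members, lists and tests were chosen with earlier results of these data known. Named were all 10 members, up to 4 called genes per list by absolute log2 fold change, or the 2 of highest mean where none was called. A gene that the rule took is not reported here, though list counts and medians include it. No list was tested as a set. Alternatives covered thresholds, the test statistic, pseudocount, scaling, level and joined loci. Scripts ran in Python 3.11.15 with pandas 2.3.3 and SciPy 1.17.1. Of their steps, the adjustment of p-values and the calls made from it were checked on simulated normal scores, and the motif and neighbour steps were not. Protein sequences were not used here.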

Additional observations from a re-analysis of the deposited data

How the results depend on the processing

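No paired analysis was possible because the table holds a single value per group, and for the same reason no sample could be left out in turn. The count of 6 genes called lower was the same at q under 0.01, at q under 0.10, with an absolute statistic of at least 2, with a change of at least 1.5-fold and with q recomputed over loci of at least 1 FPKM. It was 3 lower with the normal p of the test statistic, without Nfkbia, Nfkbiz and Bcl3, whose adjusted p-values were then 0.140, 0.360 and 0.379, where the cause was not tested. It was 0 with a Bonferroni adjustment, which 0 of 12648 loci passed, because the smallest deposited p, 5e-05, is too large for it. The median log2 fold change of the members stayed between -0.70 and -0.61 under the other pseudocounts, both rescalings and the filters, and each member's own value moved by under 0.1. Of 110 alternative values for the pathway lists, 8 moved and 3 changed sign, all 3 of them medians. These were 0.033 for other IkB-related regulators without joined loci, -0.0097 for receptors of at least 5 FPKM, and -0.59 for IkB zeta-dependent genes without a pseudocount. The cause was not tested. The normal p was an alternative for the lists chosen after seeing the data. With it, calls lower went from 2 to 0 for genes that restrain the pathway and from 3 to 1 for receptors. For canonical targets they went from 12 to 8, a change not counted among the 8 values that moved. Calls higher went from 1 to 0 for targets of Relb and p52. The median of that list, -0.20, also moved, to -2.37 over loci of at least 5 FPKM, where Cxcl13 alone was left. With only the 250 bases before the start, 4 members had a kappa B match in place of 5.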
